A study of Mus musculus with 7 samples.

Results

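Methionine is carried by 2 kinds of cytosolic tRNA, an initiator and an elongator, and their RNA was followed in mouse macrophage-line cells and in the extracellular vesicles (EVs) that these cells release. The rule took every row of the deposited table named tRNA-iMet or tRNA-Met and left out exon, intron and UTR pieces. It found 9 rows, 3 initiator (tRNA-iMet-CAT-1-1 to 3-1) and 6 elongator (tRNA-Met-CAT-1-1 to 6-1), among 224 unspliced tRNA rows and 3894 rows that stand for whole RNAs. RNA came from RAW264.7, a mouse macrophage line, grown with doxycycline in every group. In EVs the groups were knockdown cells (shDis3l2, a hairpin against Dis3l2) with catalytically inactive Dis3l2 D389N, knockdown cells with a hairpin-resistant Dis3l2 transgene (Dis3l2r), knockdown cells with an empty vector (Vector), knockdown cells alone (shDis3l2), and cells with a non-silencing hairpin (shNS). Whole-cell RNA came from shDis3l2 cells and from shNS cells. Each of the 7 groups had 1 library, so within a compartment each line is represented once, and genotype, line and library cannot be told apart there. EVs were purified by sucrose gradient and digested with micrococcal nuclease, whereas the labels state rRNA depletion for whole-cell RNA only.

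Both methionine tRNAs carry the anticodon CAT (CAU in RNA) and are charged by the same methionyl-tRNA synthetase. The initiator is brought to the small ribosomal subunit by the factor eIF2 and pairs with the start codon, while the elongator is brought by eEF1A and reads methionine codons inside the message. Dis3l2 is a 3' to 5' exoribonuclease known for degrading uridylated RNAs, structured noncoding RNAs among them. In tRNA gene names of this form the first number marks a distinct mature sequence and the second a gene copy. RefSeq on GRCm38.p6 lists 16 tRNA genes with a methionine CAT symbol (n-TMcat), 9 of 72 bases and 7 of 73 bases, of which 11 lie on chromosome 13. None of the 9 rows pairs with one of them by name, so no coordinates are given for single rows. Because the genes are so close in length, the classes were compared in counts without division by length.

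Whole-RNA counts lay between 13439408 and 25177102 in the EV libraries and came to 32342600 and 37041326 in shDis3l2 and shNS cells. Named tRNA rows held 70.2% to 76.9% of these counts in EVs and 9.09% and 13.7% in shDis3l2 and shNS cells. A single transcript, ENSMUST00000083988, held 46.1% of the counts of shDis3l2 cells and 19.3% of those of shNS cells. Of the 3639 transcript IDs, 0 were matched to a symbol, so the Dis3l2 knockdown, the macrophage markers and the genes that handle methionine tRNA were not checked here. Levels are given as CPM, the usual depth-scaled count, here taken over the whole-RNA total of each library, and are therefore relative. More initiator RNA and less of other RNA cannot be told apart, and in the cell libraries neither can fewer cells and less RNA per cell.

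The initiator was abundant in EVs. Its 3 rows together stood at 57510 CPM in D389N EVs, 44464 in Dis3l2r EVs, 45878 in Vector EVs, 31540 in shDis3l2 EVs and 22981 in shNS EVs, against 4257 CPM in shDis3l2 cells and 6407 in shNS cells. Every EV library lay above both cell libraries, and the EVs of the 3 lines with a vector or transgene lay above those of the 2 parental lines. For ranks, tRNA families were formed as the sum of the unspliced rows of an amino acid and anticodon, with initiator and elongator kept apart. Spliced rows were left out of these sums, so families whose genes hold an intron are ranked on their unspliced rows alone. Among 51 such families, the initiator ranked 3, 3, 4, 4 and 9 in the D389N, Dis3l2r, Vector, shDis3l2 and shNS EVs, and 6 and 4 in shDis3l2 and shNS cells. The elongator, which serves all other methionine codons, was far lower in counts. Its 6 rows together stood at 1182 CPM in D389N EVs, 1450 in Dis3l2r EVs, 2280 in Vector EVs, 2456 in shDis3l2 EVs and 2868 in shNS EVs, against 890 CPM in shDis3l2 cells and 1853 in shNS cells. Here the compartments overlapped, since D389N and Dis3l2r EVs lay below shNS cells. The elongator ranked between 34 and 38 of 51 families in EVs and at 28 and 25 in shDis3l2 and shNS cells.

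**Figure D1:**
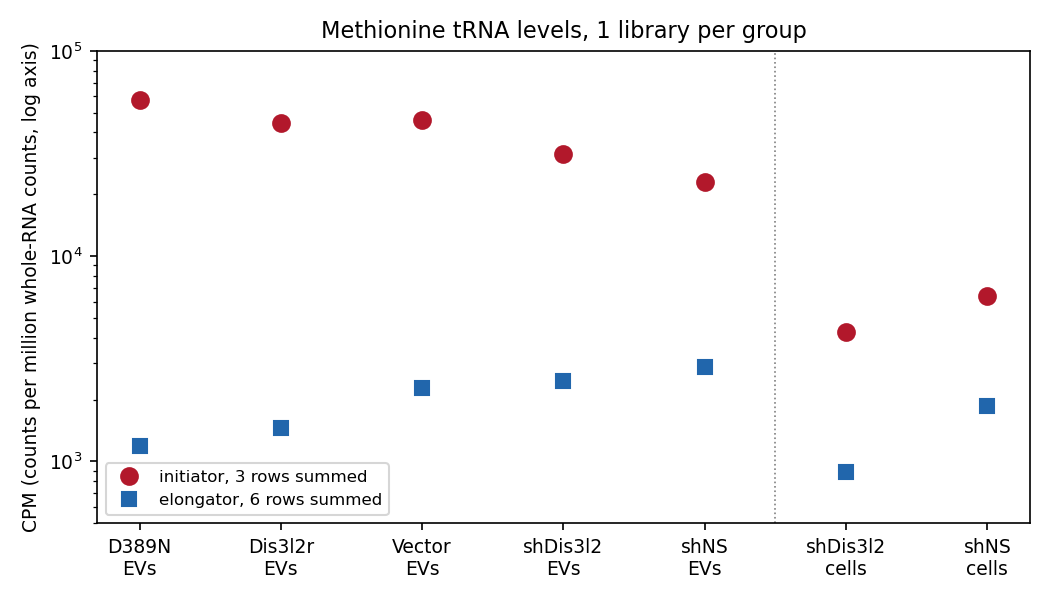
Summed initiator (circles, 3 rows) and elongator (squares, 6 rows) methionine tRNA in CPM on a log axis, 1 point per library, with EVs left and cells right of the dotted line. The initiator lies between 22981 and 57510 CPM in EVs and at 4257 and 6407 CPM in cells, while the elongator runs from 1182 to 2868 CPM in EVs and overlaps the cells.

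The clearest contrast was the ratio of the classes within a library, which no scaling between libraries can move. It is a ratio of counts and not of molecules. Whether both classes yield reads equally well, and alike in EV and cell libraries, was not tested. For each elongator count there were 48.6 initiator counts in D389N EVs, 30.7 in Dis3l2r EVs, 20.1 in Vector EVs, 12.8 in shDis3l2 EVs and 8.01 in shNS EVs, against 4.78 in shDis3l2 cells and 3.46 in shNS cells. All 5 EV libraries lay above both cell libraries. As a share of methionine tRNA counts, with exact binomial 95% intervals that cover counting error only, the initiator made up 97.99% (97.96% to 98.01%) in D389N EVs, 96.84% (96.80% to 96.89%) in Dis3l2r EVs and 95.27% (95.23% to 95.30%) in Vector EVs. It made up 92.78% (92.71% to 92.84%) in shDis3l2 EVs and 88.91% (88.83% to 88.98%) in shNS EVs. In cells it made up 82.71% (82.52% to 82.89%) with shDis3l2 and 77.57% (77.42% to 77.71%) with shNS. No interval overlapped another, so counting error does not span these steps. The mean share was 94.4% ± 3.62 in EVs (SD, n = 5 libraries) and 80.1% ± 3.63 in cells (SD, n = 2 libraries), where the SD covers different genotypes and not replicates. A two-sided exact permutation test over libraries, taken as double the smaller tail, gave p = 0.0952, the smallest value that this form of the test allows for 5 against 2 libraries, and 0.19 with Benjamini-Hochberg adjustment over the 4 share comparisons made. Counting absolute differences, a form added after the values were seen, the exact p was 0.0476, and 0.0952 after the same adjustment.

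That contrast is carried by the row of each class with the most counts over all libraries together, since tRNA-iMet-CAT-1-1 alone held 99.78% to 99.93% of initiator counts. Without tRNA-iMet-CAT-1-1 and tRNA-Met-CAT-1-1, the remaining initiator rows made up 5.11%, 3.59%, 2.75%, 1.68% and 2.23% of the remaining methionine counts in D389N, Dis3l2r, Vector, shDis3l2 and shNS EVs, against 5.13% and 2.84% in shDis3l2 and shNS cells. The compartments then overlapped, and the difference of the means turned to -0.91 percentage points. Because nearly all initiator counts are gone in this comparison, it cannot show how stable the contrast of the full classes is.

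Set against the other tRNAs of the same library, the elongator had separate ranges in the compartments and the initiator did not. It held 0.158% of named tRNA counts in D389N EVs, 0.207% in Dis3l2r EVs, 0.296% in Vector EVs, 0.346% in shDis3l2 EVs and 0.382% in shNS EVs, against 0.979% in shDis3l2 cells and 1.35% in shNS cells. All EV libraries lay below both cell libraries (exact permutation test, double the smaller tail, p = 0.0952, adjusted 0.19; by absolute difference 0.0476, adjusted 0.0952; n = 5 and 2 libraries). This separation too depended on tRNA-Met-CAT-1-1, the elongator row with the most counts over all libraries together. Without tRNA-Met-CAT-1-1 the elongator held 0.0965%, 0.116%, 0.179%, 0.199% and 0.182% of tRNA counts in D389N, Dis3l2r, Vector, shDis3l2 and shNS EVs, against 0.194% and 0.246% in shDis3l2 and shNS cells. The compartments then overlapped, and the difference of means shrank to -0.0659 points against -0.887 with that row (exact permutation p = 0.19). The row held 80.1% and 81.7% of elongator counts in shDis3l2 and shNS cells and 39.0% to 52.4% in EVs. Leaving it out takes more of the class from cells than from EVs, so the comparison cannot show how stable the separation is. The initiator held 7.69%, 6.33%, 5.97%, 4.44% and 3.06% of tRNA counts in D389N, Dis3l2r, Vector, shDis3l2 and shNS EVs, against 4.68% in shDis3l2 cells and 4.67% in shNS cells. EVs therefore lay on both sides of the cells (exact permutation p = 0.667, two-sided, n = 5 and 2 libraries).

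**Figure D2:**
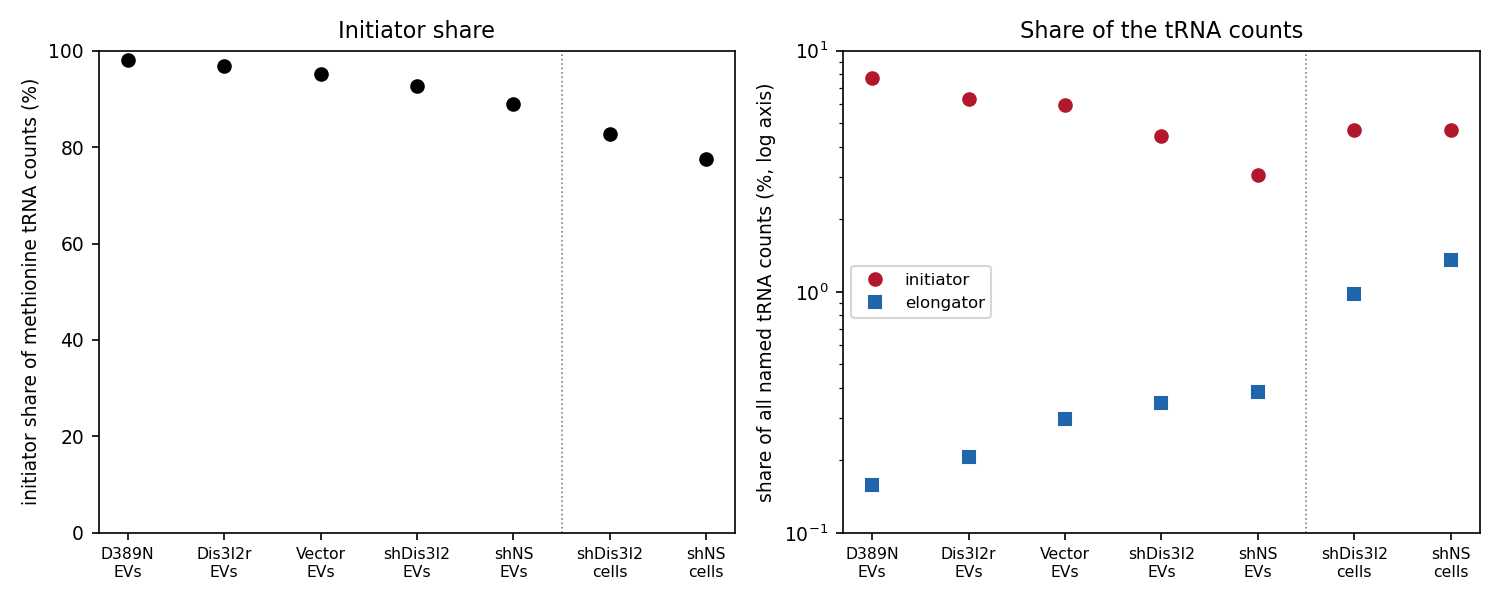
Left, initiator share of all methionine tRNA counts in percent, with 95% counting intervals smaller than the points; right, initiator (circles) and elongator (squares) as a percentage of all named tRNA counts on a log axis, 1 library per group. The initiator share runs from 88.9% to 98.0% in EVs and is 82.7% and 77.6% in shDis3l2 and shNS cells; on the right the elongator ranges of the compartments are apart and the initiator ranges overlap.

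EVs were next set against the cells they came from, within each line. A row was called past a rule of size when the pair held 100 counts or more, the levels differed by 2-fold or more and the 95% counting interval excluded equal levels; with 1 library a side there is no test between conditions. In shDis3l2 EVs over shDis3l2 cells the summed initiator had a log2 ratio of 2.89 (2.88 to 2.90) and the elongator 1.46 (1.44 to 1.49), and the median of the measured tRNA rows was 2.67. In shNS EVs over shNS cells the initiator stood at 1.84 (1.84 to 1.85) and the elongator at 0.63 (0.61 to 0.65), with a tRNA median of 1.98. These directions flip when libraries are scaled to their tRNA totals, to -0.07 and -1.50 for initiator and elongator in shDis3l2 and to -0.61 and -1.82 in shNS, and with totals of exon pieces, which are few in shNS cells, to -2.64 and -3.85 in shNS. The ratio of initiator to elongator, free of scaling, was higher in EVs by a log2 ratio of 1.43 (Wald 95% interval 1.40 to 1.45) in shDis3l2 and of 1.21 (1.20 to 1.23) in shNS.

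Of the 7 methionine rows measured in the shDis3l2 line, 5 were higher in EVs and 1 lower, where 33.1% of all 525 measured RNAs were higher and 58.1% lower (91.2% in either direction), and 134 of 163 tRNA rows were higher. In the shNS line 6 of 8 measured rows were higher and 0 lower, where 32% of 531 measured RNAs were higher and 59.5% lower (91.5% in either direction), and 128 of 164 tRNA rows were higher. Scaled to tRNA totals, 1 row was higher and 2 lower in shDis3l2, where 44 of 525 RNAs were higher and 379 lower. With the same scaling 1 row was higher and 3 lower in shNS, where 52 of 531 RNAs were higher and 383 lower. The medians of the measured methionine rows were 2.89 in shDis3l2 and 1.88 in shNS, against -3.32 and -3.54 for all RNAs.

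The initiator was nearly all tRNA-iMet-CAT-1-1, which held 99.86% to 99.93% of initiator counts in EVs and 99.78% and 99.85% in shDis3l2 and shNS cells. It had 1204058 counts in D389N EVs, 597161 in Dis3l2r EVs, 1154088 in Vector EVs, 580788 in shDis3l2 EVs and 543186 in shNS EVs, against 137371 in shDis3l2 cells and 236948 in shNS cells. Since it makes up the class, its CPM shows the same separation of EVs and cells. The minor row tRNA-iMet-CAT-2-1 stood at 22.4 to 37.1 CPM in EVs, against 1.66 CPM in shDis3l2 cells and 3.92 in shNS cells, with no overlap. tRNA-iMet-CAT-3-1 went the other way: it stood at 8.03 CPM in D389N EVs, 2.18 in Dis3l2r EVs, 1.74 in Vector EVs, 1.77 in shDis3l2 EVs and 4.45 in shNS EVs, against 7.88 CPM in shDis3l2 cells and 5.95 in shNS cells. Only D389N EVs reached the level of the cells. Its counts were 29.3 to 168 in EVs, against 255 and 221 in shDis3l2 and shNS cells, and its log2 ratio was -2.14 (-2.71 to -1.61) in shDis3l2 and -0.43 (-0.78 to -0.09) in shNS. The counts are estimates with fractions, so reads that match several near-identical rows were divided between them, and the minor initiator rows beside their far larger neighbour are uncertain.

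**Figure D3:**
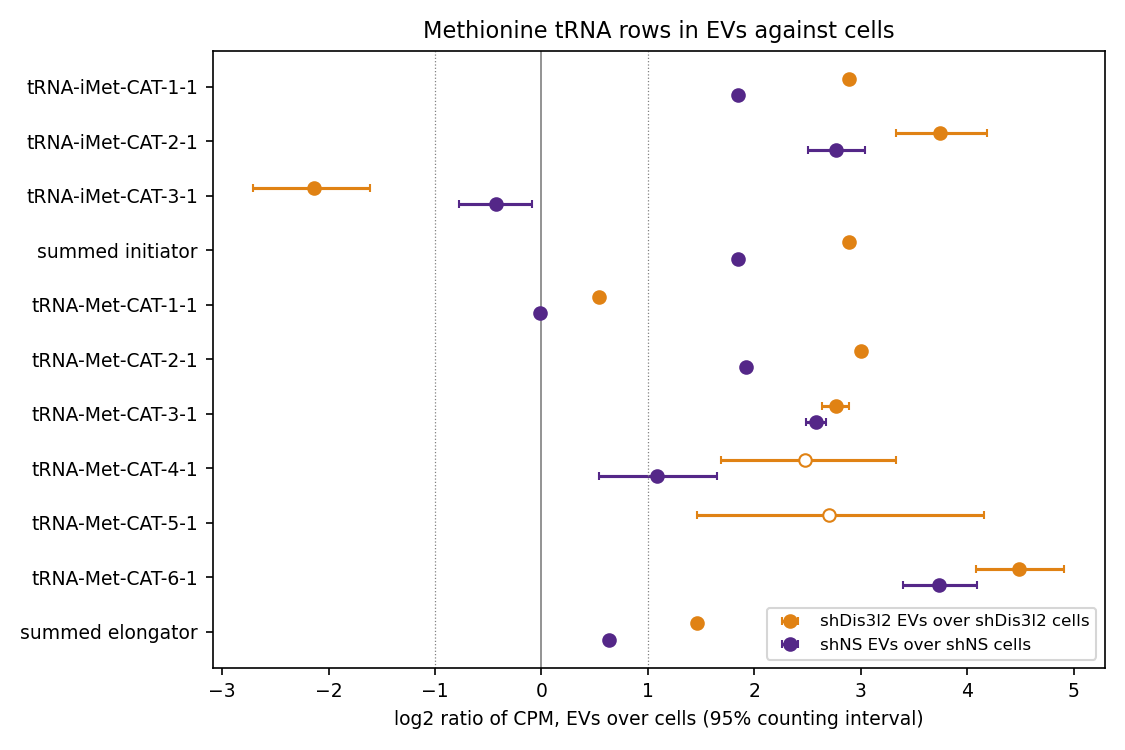
Log2 ratio of CPM, EVs over cells, for each methionine tRNA row and both sums, with 95% counting intervals; upper points of a pair are the shDis3l2 line and lower points shNS, open points have under 100 counts, and dotted lines mark 2-fold. tRNA-iMet-CAT-3-1 lies below 0 and tRNA-Met-CAT-1-1 at -0.01 in shNS and 0.54 in shDis3l2, while the other plotted rows lie at or above 1.09; scaled to tRNA totals both sums lie below 0. tRNA-Met-CAT-5-1 has 0 counts in shNS cells and no shNS point.

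Across all 7 libraries, edgeR's quasi-likelihood test compared the 5 EV with the 2 cell libraries, with the Dis3l2 class as covariate. It called 6 of the 8 methionine rows that passed the count filter, all higher in EVs, where 31.2% of 642 RNAs were higher and 47.7% lower (78.8% in either direction). Most tRNA rows were called higher as well: of 197 tested, 142 were higher and 8 lower. The row tRNA-Met-CAT-5-1 did not pass the filter. The libraries of a compartment are different genotypes and not replicates. The p-values therefore set the difference between compartments against a spread between these libraries, with only 2 on the cell side. For each row edgeR estimated that spread in part from the other RNAs tested, so the p-values do not rest on the row's own spread alone. Among initiators, 2 rows rose: tRNA-iMet-CAT-1-1 by a log2 fold change of 2.89 (SE 0.525, adjusted p = 0.000238) and tRNA-iMet-CAT-2-1 by 3.46 (SE 0.786, adjusted p = 0.0014). tRNA-iMet-CAT-3-1 stood at -0.95 (SE 0.900, adjusted p = 0.342), and at 0.43 with DESeq2. Among elongators, tRNA-Met-CAT-6-1 rose by 3.67 (SE 0.840, adjusted p = 0.00146), tRNA-Met-CAT-3-1 by 2.49 (SE 0.628, adjusted p = 0.00291) and tRNA-Met-CAT-2-1 by 2.14 (SE 0.518, adjusted p = 0.00221). tRNA-Met-CAT-4-1 was called at 2.80 (SE 1.16, adjusted p = 0.0414), but its adjusted p was 0.0795 with TMM scaling, 0.0589 without the count filter and 0.282 in the 4 parental libraries. It was also lost without the Dis3l2r EV library (0.136), the Vector EV library (0.0697), the shDis3l2 cell library (0.209) or the shNS cell library (0.0712). The most abundant elongator row in cells, tRNA-Met-CAT-1-1, stood at -0.16 (SE 0.474, adjusted p = 0.756), with a sign that turned positive in the 4 parental libraries, with DESeq2, and without the Dis3l2r EV or the shNS cell library. The median of the 8 rows was 2.65, against 2.31 for 197 tRNA rows and -1.33 for all RNAs.

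The makeup of the elongator counts therefore differed between compartments, a pattern singled out after its values were seen and given without a test. tRNA-Met-CAT-1-1 held 39.0% of elongator counts in D389N EVs, 43.9% in Dis3l2r EVs, 39.7% in Vector EVs, 42.4% in shDis3l2 EVs and 52.4% in shNS EVs, against 80.1% in shDis3l2 cells and 81.7% in shNS cells. tRNA-Met-CAT-2-1 held 52.8%, 47.7%, 49.9%, 50.5% and 39.95% in D389N, Dis3l2r, Vector, shDis3l2 and shNS EVs, against 17.4% and 16.4% in shDis3l2 and shNS cells. Neither share overlapped between compartments, and row 2-1 was the larger in all EV libraries except shNS. Reads that match several elongator rows were divided between them here too, and how far these shares depend on that division was not tested. In CPM, tRNA-Met-CAT-1-1 stood at 461, 637, 905, 1040 and 1503 in D389N, Dis3l2r, Vector, shDis3l2 and shNS EVs, against 713 in shDis3l2 cells and 1515 in shNS cells. tRNA-Met-CAT-2-1 stood at 624, 692, 1138, 1241 and 1146 CPM in the same EV libraries, against 155 in shDis3l2 cells and 303 in shNS cells. The level of row 1-1 thus overlapped between compartments, and that of row 2-1 did not.

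tRNA-Met-CAT-3-1, next by count among the elongators, held 5.41% to 8.68% of elongator counts in EVs, against 2.20% in shDis3l2 cells and 1.70% in shNS cells. The remaining rows were small. tRNA-Met-CAT-6-1 stood at 11.8 to 37.4 CPM in EVs, against 1.68 and 2.12 CPM in shDis3l2 and shNS cells, and tRNA-Met-CAT-4-1 at 2.41 to 11.0 CPM in EVs, against 0.562 and 1.36 CPM. For tRNA-Met-CAT-5-1, estimated counts were 1.71, 1.02 and 1.03 in D389N, Dis3l2r and Vector EVs, 26.2 and 8.45 in shDis3l2 and shNS EVs, and 6.57 and 0 in shDis3l2 and shNS cells, where 0 counts allow up to 0.0810 CPM (3 counts, counting error only). Without the count filter, edgeR's quasi-likelihood test gave this row a log2 fold change of 2.30 (SE 2.30, adjusted p = 0.532) for EVs against cells, so no difference was detectable at this depth.

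**Figure D4:**
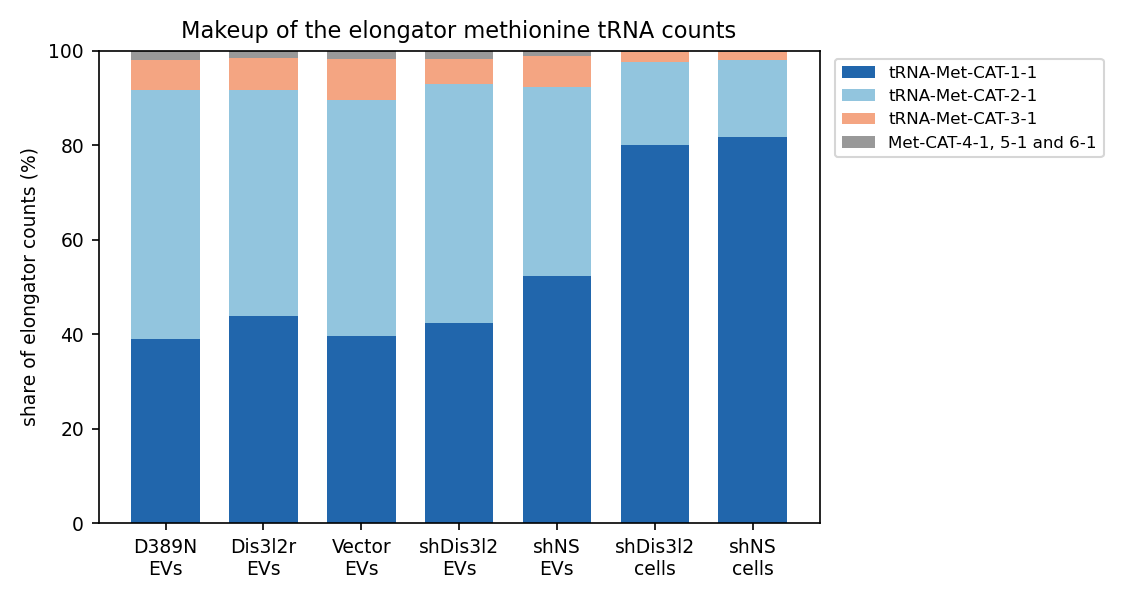
Stacked bars of the share of elongator methionine tRNA counts, in percent, held by each row in each library, 1 library per group. tRNA-Met-CAT-1-1 holds 39.0% to 52.4% in EVs and 80.1% and 81.7% in shDis3l2 and shNS cells; tRNA-Met-CAT-2-1 holds 39.95% to 52.8% in EVs, against 17.4% and 16.4% in shDis3l2 and shNS cells.

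The next pairs were scaled by TMM, which takes most RNAs of a compartment as a common level. Knockdown of Dis3l2 was compared within each compartment. In shDis3l2 over shNS EVs the initiator stood at 0.55 (0.54 to 0.56) and the elongator at -0.13 (-0.15 to -0.11). In shDis3l2 over shNS cells the initiator stood at -0.32 (-0.33 to -0.31) and the elongator at -0.79 (-0.81 to -0.77). The initiator value turned to 0.004 when scaled to tRNA totals and came to -0.0085 (-0.018 to 0.0011) without the most abundant cell transcript. Neither sum passed the rule of size in either pair; in cells the elongator passed it with whole-RNA totals (-1.06) and all-row totals (-1.14). In both compartments the knockdown library had the higher ratio of initiator to elongator, by log2 0.68 (0.66 to 0.70) in EVs and 0.47 (0.45 to 0.49) in cells. Of 8 measured rows in EVs, 0 were higher and 1 lower, where 7.06% of 411 RNAs were higher and 4.14% lower (11.2% in either direction). That row was tRNA-iMet-CAT-3-1, with 32.6 counts in shDis3l2 EVs and 105 in shNS EVs, a log2 ratio of -1.22 (-1.83 to -0.64). In cells 0 of 7 measured rows passed, where 11.7% of 513 RNAs were higher and 24% lower (35.7% in either direction). With whole-RNA totals 2 rows were lower, where 179 of 513 RNAs were lower. With all-row totals 3 rows were lower, where 195 of 513 RNAs were lower.

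Re-expression of Dis3l2 and of its inactive form was compared with the empty vector, and both pairs share the Vector library. In Dis3l2r over Vector EVs the initiator stood at -0.11 (-0.12 to -0.11), turning to 0.09 with tRNA totals and 0.05 without the most abundant cell transcript, and the elongator at -0.72 (-0.75 to -0.70). In D389N over Vector EVs the initiator stood at 0.58 (0.58 to 0.58) and the elongator at -0.69 (-0.71 to -0.67; past the rule at -1.005 with all-row totals). The elongator was thus below Vector with the active and with the inactive protein. By rows, 0 of 7 were higher and 2 lower with Dis3l2r, where 24.7% of 393 RNAs were higher and 7.38% lower (32.1% in either direction). Both were elongators, tRNA-Met-CAT-3-1 at -1.07 (-1.16 to -0.99) and tRNA-Met-CAT-6-1 at -1.30 (-1.56 to -1.05). With tRNA totals, or leaving out the most abundant cell transcript, 1 row was lower, where 16 of 393 RNAs were lower in either setting. With D389N, 1 of 8 rows was higher and 2 lower, where 10.8% of 379 RNAs were higher and 12.4% lower (23.2% in either direction). The higher row was tRNA-iMet-CAT-3-1 at 2.45 (1.97 to 2.97), with 168 counts in D389N EVs and 43.9 in Vector EVs, and the lower ones tRNA-Met-CAT-3-1 at -1.17 (-1.25 to -1.09) and tRNA-Met-CAT-4-1 at -1.95 (-2.42 to -1.51).

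D389N EVs set directly against Dis3l2r EVs gave 0.60 (0.60 to 0.61) for the initiator and -0.06 (-0.09 to -0.04) for the elongator, a value that turned to 0.10 with DESeq2 size factors. Of 8 measured rows, 2 were higher and 1 lower, where 2.64% of 379 RNAs were higher and 21.9% lower (24.5% in either direction). tRNA-iMet-CAT-3-1 stood at 2.13 (1.55 to 2.75), tRNA-Met-CAT-6-1 at 1.098 (0.83 to 1.37) and tRNA-Met-CAT-4-1 at -1.94 (-2.44 to -1.47). The call of tRNA-Met-CAT-6-1 was lost in 4 of the 5 other scalings, where 1 row was higher and 1 lower. In those 4 scalings 6 to 9 of 379 RNAs were higher and 93 to 117 lower. DESeq2 size factors kept 2 rows higher, where 17 of 379 RNAs were higher and 65 lower. As a measure of how far libraries without a Dis3l2 transgene lie apart, Vector over shDis3l2 EVs gave 0.58 (0.57 to 0.58) for the initiator and -0.07 (-0.09 to -0.05) for the elongator, which turned to 0.06 with DESeq2 size factors. That initiator value is as large as the one for D389N over Vector. Of 7 measured rows in this pair, 1 was higher, tRNA-Met-CAT-4-1 at 1.87 (1.45 to 2.30), and 0 lower, where 8.91% of 393 RNAs were higher and 15% lower (23.9% in either direction).

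**Figure D5:**
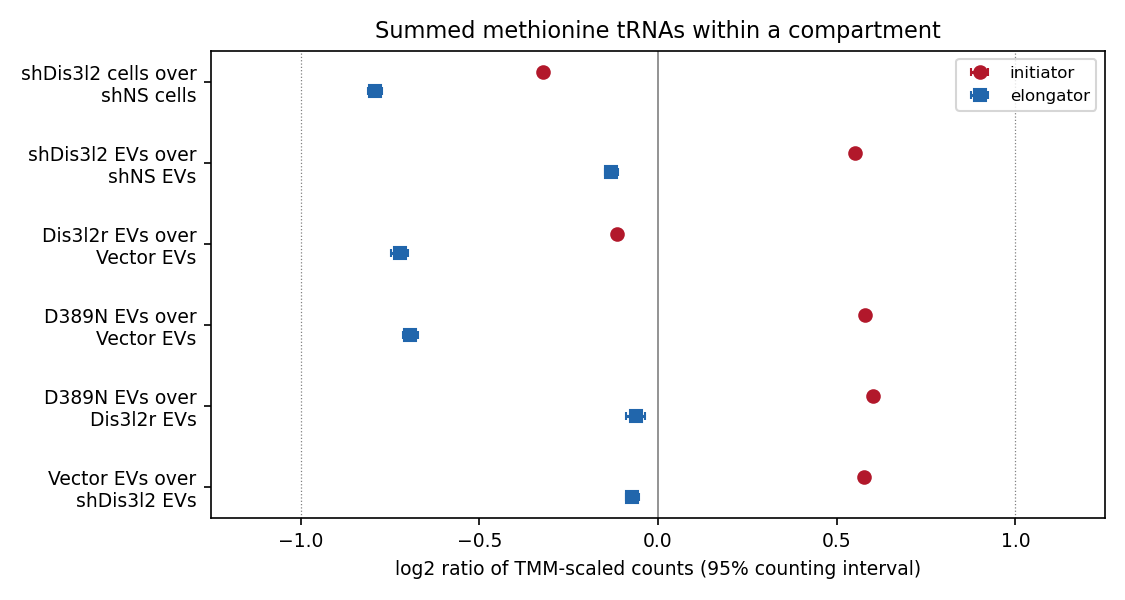
Log2 ratios of TMM-scaled counts with 95% counting intervals for the summed initiator (circles) and elongator (squares) in the 6 pairs within a compartment; dotted lines mark 2-fold, which no sum passes. With the pairs named as here, the initiator lies to the right of the elongator in each, from -0.32 to 0.60, against -0.79 to -0.06 for the elongator. Other scalings turn the sign of the initiator in knockdown over shNS cells and Dis3l2r over Vector, and of the elongator in D389N over Dis3l2r and Vector over shDis3l2.

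In all 6 pairs within a compartment the ratio of initiator to elongator was higher in the first-named library, by log2 0.61 (0.58 to 0.63) for Dis3l2r over Vector, 1.27 (1.25 to 1.30) for D389N over Vector, 0.67 (0.64 to 0.69) for D389N over Dis3l2r and 0.65 (0.63 to 0.67) for Vector over shDis3l2 EVs. Which library is named first was chosen here, and the EV pairs share libraries, so these directions are not separate results. The order of the EV ratios did not follow Dis3l2 class, since Dis3l2r EVs, with the active transgene, lay between D389N and Vector EVs. Grouped by that class, the initiator share averaged 95.3% ± 2.61 in the 3 EV libraries without active Dis3l2 (shDis3l2, Vector and D389N; SD, n = 3) and 92.9% ± 5.61 in the 2 with it (shNS and Dis3l2r; SD, n = 2). An exact two-sided permutation test gave p = 0.6, where 0.2 is the smallest that doubling the smaller tail allows, and without the shNS EV library the difference of 2.47 percentage points became -1.50.

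Row by row, edgeR's quasi-likelihood test of the same 3 against 2 EV libraries called 0 of 8 methionine rows, where 0.174% of 575 RNAs were called. At an unadjusted p under 0.05 in that test there were 0 of 8 rows and 34 of 575 RNAs. DESeq2 called 0 of 8 rows and 2 of 575 RNAs. The log2 fold change of tRNA-iMet-CAT-1-1 was 0.72 (SE 0.410, edgeR adjusted p = 0.669), and those of the other 7 rows lay between -0.24 and 0.71. With 1 library left out, tRNA-iMet-CAT-1-1 came to 0.17 without shNS EVs and 1.14 without Dis3l2r EVs, and tRNA-Met-CAT-6-1, at 0.71 with all 5, to 0.16 without Dis3l2r EVs and 1.44 without shNS EVs. The median of the methionine rows was 0.35, that of 196 tRNA rows 0.34 and that of all RNAs 0.10.

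Profiles over the libraries were compared between tRNA families with at least 100 counts by the root mean square distance of log2(CPM + 1), each centred on its own mean. Over 7 libraries the families nearest to the initiator were Ser-CGA at 0.25, Leu-TAA at 0.27 and Leu-TAG at 0.30 log2 units, with a median of 0.62 over 49 families; the elongator was 44th in this order, at 1.30. Nearest to the elongator were Trp-CCA at 0.46, Asn-GTT at 0.48 and Val-CAC at 0.49, with a median of 1.02. Over the 5 EV libraries alone, Lys-TTT at 0.14, Gly-ACC at 0.18 and Ser-CGA at 0.19 were nearest to the initiator, and Trp-CCA at 0.08, Asn-GTT at 0.10 and Arg-TCG at 0.18 to the elongator. Trp-CCA stood at 1209, 1650, 2678, 2623 and 3365 CPM in D389N, Dis3l2r, Vector, shDis3l2 and shNS EVs. Among EVs this is the order of the elongator with Vector and shDis3l2 exchanged. In shDis3l2 and shNS cells Trp-CCA stood at 462 and 1114 CPM, below every EV library, whereas the elongator overlapped between compartments. Lys-TTT stood at 5237, 3626, 3537, 2356 and 2200 CPM in the same EV libraries, against 227 and 248 CPM in shDis3l2 and shNS cells.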

How the data were processed

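The authors deposited 1 table of estimated counts (expected read counts per row, with fractions, not scaled between libraries) for 7 libraries. The submitters' processing notes name Salmon, Novoalign, UMI-tools and cutadapt, and the builds mm10 and GRCm38; their versions, their order and any deduplication are not stated there. Of 580839 rows, the 3894 that are not exon, intron or UTR pieces were used, and their totals gave CPM. Estimated counts were rounded for intervals and tests.

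EV against cell pairs were scaled by totals and pairs within a compartment by TMM (edgeR 4.0.16). Fits used edgeR quasi-likelihood tests with filterByExpr and Benjamini-Hochberg adjustment over all RNAs tested, with 4 residual degrees of freedom for EVs against cells and 3 for the Dis3l2 class, which was assigned from the genotype in the titles. The EV against cell fit used unscaled totals. The steps were also run on simulated counts. For the fits these gave all libraries the same makeup apart from the changed rows, and the most abundant rows were left unchanged. They cannot show how the fits behave for compartments as unlike as these. Alternatives were other scalings, count minimums of 20 and 500, no count filter, DESeq2 1.42.0, the parental libraries alone, no class covariate and each library left out. The software was scipy 1.17.1, pandas 2.3.3, numpy 2.4.6 and matplotlib 3.10.9 under Python 3.11.15, with R 4.3.3. Members and lists were chosen with earlier results of these data known. All members were named, and the 3 tRNA families nearest in profile.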

Additional observations from a re-analysis of the deposited data

Results flagged for a closer look

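For 3 members and the initiator sum, the log2 ratio of shDis3l2 over shNS had opposite signs in EVs and in cells, with counting intervals clear of 0 on both sides; the difference was not tested, since each value rests on 1 library a side. The summed initiator stood at 0.55 in EVs and -0.32 in cells, a difference of 0.873, and tRNA-iMet-CAT-1-1 at 0.55 and -0.32, a difference of 0.875. That row makes up nearly all of the sum, so the 2 are not separate results. In cells the initiator sum came to 0.004 with tRNA totals and to -0.0085 (-0.018 to 0.0011) without the most abundant cell transcript, where the interval includes 0. tRNA-Met-CAT-2-1 stood at 0.21 in EVs and -0.70 in cells, a difference of 0.913. tRNA-iMet-CAT-3-1 was opposite in order, at -1.22 in EVs and 0.67 in cells, a difference of -1.88, on 32.6 and 105 counts in shDis3l2 and shNS EVs, against 255 and 221 in shDis3l2 and shNS cells.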

How the results depend on the processing

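Scaling sets the level of every pair, and the ratio of initiator to elongator is free of it. The median of all RNAs moved by -4.48 to 1.10 (log2) over the alternatives in the shNS EV over cell pair, by -2.96 to 0.72 in the shDis3l2 one, by -0.35 to 0.33 between cells and by -0.32 to 0.20 within EVs. With tRNA totals, EV over cell values were -0.61 (initiator) and -1.82 (elongator) in shNS and -0.075 and -1.50 in shDis3l2, and the initiator stood at 0.0039 between cells and 0.087 for Dis3l2r over Vector. Exon-piece totals gave -2.64 and -3.85 in shNS. The elongator of EVs over cells was 1.73 with DESeq2 size factors in shNS, and in shDis3l2 0.99 by TMM and 0.62 with the top cell transcript left out; the same omission put the initiator of Dis3l2r over Vector at 0.049. The elongator between cells was -1.06 with whole-RNA totals and -1.14 with all-row totals, for D389N over Vector -1.005 with all-row totals, and with DESeq2 size factors 0.10 for D389N over Dis3l2r and 0.059 for Vector over shDis3l2. The cause of these moves beyond the scaling itself was not tested.

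Without the most abundant row of each class, the initiator share of EVs minus cells was -0.91 points, the initiator share of tRNA counts -0.0044 points and the elongator share -0.0659 points. For the initiator this leaves out nearly the whole class, and for the elongator a larger part of the class in cells than in EVs. Counting absolute differences in the permutation test, added after the values were seen, left the differences of 14.2 points in initiator share and -0.887 points in elongator share of tRNA counts as they are and gave p = 0.0476 for both (exact test). Leaving out each library gave 11.6 to 16.8 points for the initiator share of EVs minus cells, -1.50 to 6.44 for EVs without minus with active Dis3l2, 0.277 to 1.43 for the initiator share of tRNA counts, and -1.07 to -0.701 for the elongator. A cell arm left with 1 library was taken to vary like the others. The fit of EVs against cells was run with totals, TMM and DESeq2, and not with the tRNA or exon-piece totals that turned pair values. With both cell libraries kept it called 5 or 6 rows, where 470 to 531 of 604 to 1403 RNAs tested were called. The fit on Dis3l2 class called 0 rows with 2 or more libraries a side, where 0 to 3 of 552 to 1212 RNAs tested were called. In the first, tRNA-Met-CAT-1-1 was 1.04 with DESeq2, 0.27 in the 4 parental libraries, and -0.50 to 0.17 with a library left out (0.096 without Dis3l2r EVs, 0.17 without shNS cells), and tRNA-iMet-CAT-3-1 was 0.43 with DESeq2. In the second, uncalled rows changed sign: tRNA-Met-CAT-3-1 was -0.087 with totals and -0.36 to 0.57 with a library left out (-0.36, -0.22 and -0.064 without Dis3l2r, Vector and shDis3l2 EVs). tRNA-Met-CAT-1-1 ran from -0.79 to 0.47 (0.0042 without D389N, 0.47 without shNS EVs), tRNA-Met-CAT-2-1 from -0.070 to 0.67 (-0.070 and -0.029 without Dis3l2r and shDis3l2 EVs), tRNA-Met-CAT-4-1 from -0.96 to 1.05 (0.30, 1.05 and 0.051 without D389N, Dis3l2r and shDis3l2 EVs) and tRNA-iMet-CAT-3-1 from -0.75 (without D389N EVs) to 1.03. Count minimums of 20 and 500 moved the number of rows past the rule of size by at most 2 in the pairs within a compartment. The labels give no replicate numbers to pair by. EVs and cells of a line were paired in the fit of the 4 parental libraries, where the class covariate stands for the line. That fit called 5 rows, where 470 of 604 RNAs were called, with 1 residual degree of freedom. Its spread too was estimated in part from the other RNAs tested.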
